A study of Homo sapiens with 15 samples.

Results

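Open chromatin of K562 cells was listed in 15 libraries, and the 5 libraries numbered replicate 1 were compared with the 10 numbered replicate 2 or 3. The numbers were read from the sample titles. Each of the 5 treatment groups gave 1 library to the first side and 2 to the second, so that treatment was balanced over the comparison. K562 is a human erythroleukemia line that transcribes embryonic and fetal globin genes. All cells had been transduced with lentivirus, selected with puromycin, and expressed dCas9, a Cas9 that no longer cuts DNA and is led to its site by a guide RNA (gRNA). The first group had dCas9-KRAB and no gRNA, KRAB being a repressor domain of zinc finger proteins. The next 2 groups had dCas9 without KRAB and gRNA Cr4 or Cr10. The last 2 had dCas9-KRAB and gRNA Cr4 or Cr10. Both gRNAs were aimed at HS2, an erythroid enhancer in the locus control region of the beta-globin genes, and no library of untransduced cells was analysed here. The submitters state that transductions were made in triplicate. The labels do not say what the number marks, or whether libraries of the same number were handled together, so the p-values measure only how these samples spread, which may be technical.

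Most DNA in a nucleus is wrapped around nucleosomes, and a nuclease cuts first where they are displaced, at active promoters, enhancers and insulators. The height of a peak in such a library depends on how open the site is and on how many fragments were sequenced. A deeper library also gives a longer list, because weaker sites become detectable. Every one of the 5 sites of the beta-globin locus control region examined (HS1 to HS5) held a peak in all 15 lists, as did the windows of the HBG1, HBG2 and HBD promoters and of 3' HS1.

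The replicate 1 lists were shorter on average, but the difference was within the spread of the lists. In the order of groups just given, they held 63387, 68466, 53147, 66874 and 60522 peaks. The other 10 lists ran from 61074 to 94777 peaks. The means were 62479 ± 6060 (SD, n = 5) and 75798 ± 12525 (n = 10), a difference of −13319 peaks (two-sided exact permutation of the number 1 within treatment groups, p = 0.0905, Benjamini-Hochberg adjusted p = 0.226 over 5 library measures). The sources used here do not give total fragments per library. As a stand-in for depth, the lowest local background implied by the fold and p-value of any peak in a list was used. This quietest background was 2.24 to 3.55 fragments in the replicate 1 libraries and 2.21 to 5.81 in the others (exact permutation p = 0.325, adjusted p = 0.542). The 4 deepest libraries by this measure were all numbered 2 or 3. They were replicate 2 without a gRNA (5.59), replicate 3 of dCas9 with Cr4 (5.09), of dCas9 with Cr10 (5.60) and of dCas9-KRAB with Cr4 (5.81), while the other 6 lay between 2.21 and 3.22. Depth and replicate number are therefore partly mixed in this design, and several of the results below are given also against these 6 libraries alone.

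Relative to their background, the peaks of the replicate 1 libraries were not lower than those of the others past the threshold. The median summit pileup (fragments stacked at the summit) of the 38888 regions with a peak in all 15 lists was divided by the quietest background. This ratio was 21.4, 19.99, 19.6, 20.9 and 19.5 in the replicate 1 libraries, in the same order. In the 6 libraries of like depth it ran from 22.8 to 24.5, and in the 4 deepest from 19.1 to 20.5. Against all 10 libraries the difference was −1.76 (two-sided exact permutation p = 0.156). The replicate 1 libraries lay below all 6 of like depth, with means of 20.3 ± 0.840 (n = 5) and 23.6 ± 0.647 (n = 6). The 6 were chosen by the background that divides this ratio, so these values are a description and support no difference. Median peak width did not separate the sides (300.4 ± 2.51 against 302.1 ± 6.01 bp, exact permutation p = 0.613, adjusted p = 0.613). Nor did median fold (6.45 ± 0.397 against 6.24 ± 0.724, exact permutation p = 0.609, adjusted p = 0.613). The strongest 1000 of the 38888 regions in each library held 7.02% ± 0.19 of the summit pileup in replicate 1, against 6.27% ± 0.56. Replicate 1 was highest in 4 of 5 groups (exact permutation p = 0.0288, adjusted p = 0.144). Without the 4 deepest libraries the other side stood at 6.69%.

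**Figure D1:**
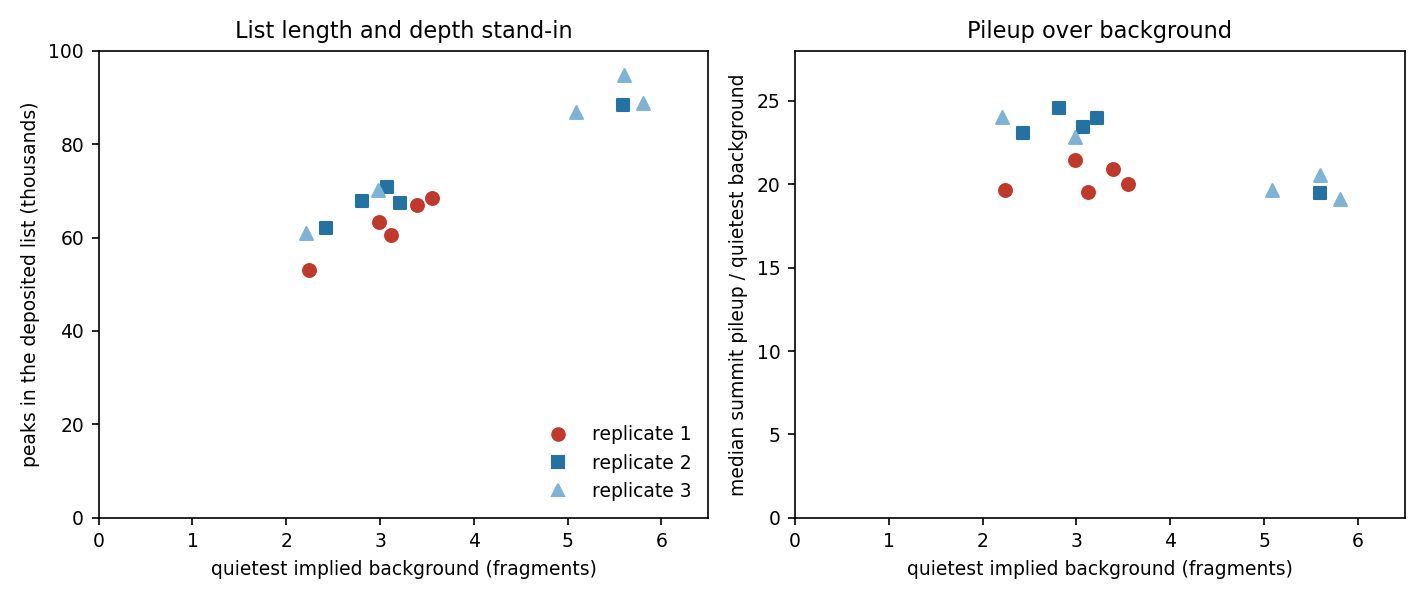
Number of peaks (left) and median summit pileup divided by the quietest background (right), each against the quietest implied background in fragments, with 1 point for each of the 15 libraries, marked by replicate number. On the right the 5 replicate 1 libraries (19.5 to 21.4) lie below the 6 other libraries of like depth (22.8 to 24.5), and the 4 deepest libraries lie at 19.1 to 20.5.

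Of the 5 replicate 1 libraries, 4 deviated from the average library at the same regions. For each of the 38888 regions, log2(summit pileup + 1) was taken less the median of its library, and the deviation from the mean of the 15 libraries was correlated between libraries. The correlation is across regions, which are not independent, and deviations from a common mean lean slightly below 0. Between the 4 replicate 1 libraries other than dCas9 with Cr10, r was 0.29 to 0.60 over 6 pairs, with a median of 0.43. These 4 came from 4 different treatment groups. Their correlations with the libraries numbered 2 or 3 had a median of −0.30 over 40 pairs. Replicate 1 of dCas9 with Cr10 did not follow them, with r between −0.37 and −0.25 over 4 pairs. Pairs of replicate 2 libraries had a median r of −0.0040 (−0.19 to 0.52), pairs of replicate 3 libraries 0.22 (−0.17 to 0.42), and pairs of replicate 2 with replicate 3 −0.032 (−0.46 to 0.41), so that single pairs among them were as alike as the 4. The library of dCas9 with Cr10 numbered 1 was also the shortest list and the second lowest in quietest background (2.24).

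**Figure D2:**
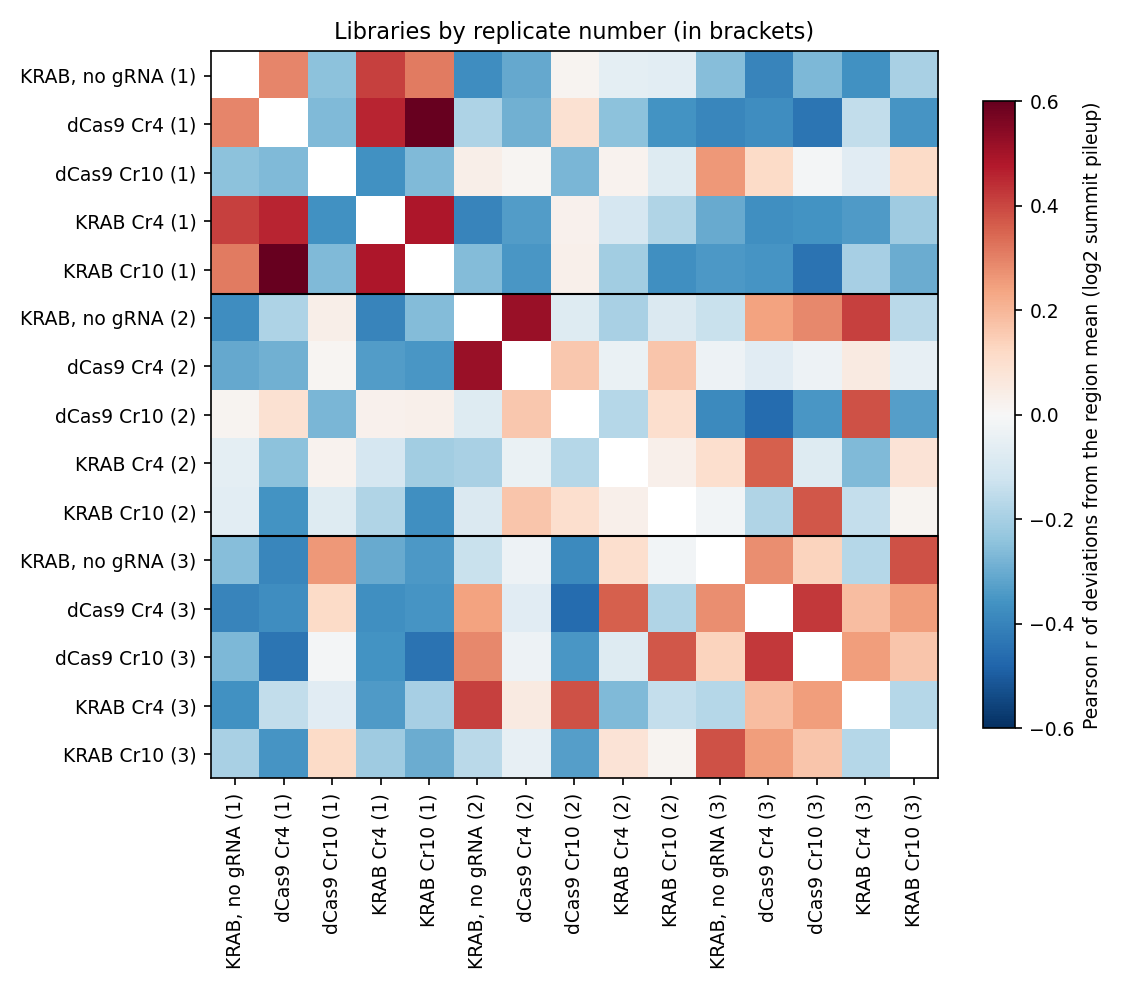
Pearson correlation, across 38888 regions, of the deviation of log2 summit pileup from the mean of 15 libraries, for every pair of libraries, ordered by replicate number (in brackets) and then by treatment, with KRAB for dCas9-KRAB. Of the 5 libraries numbered 1, 4 form a block of r 0.29 to 0.60, and dCas9 with Cr10 numbered 1 stands outside it.

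The replicate number accounted for more of the variation in summit pileup at these regions than the treatment did. The number took 28.9% of the sum of squares with 2 degrees of freedom, or 14.5% for each, and treatment 17.8% with 4, or 4.46% for each. The remainder took 6.66% for each of its 8 degrees of freedom, so the treatment term stood below the remainder. For rank percentiles in lists of equal length the total shares were nearly equal, 23% for the number and 22.5% for treatment. For each degree of freedom they were 11.5% for the number, 5.62% for treatment and 6.82% for the remainder.

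By summit pileup, 1795 of 38888 regions (4.62%) were higher in the replicate 1 libraries and 1718 (4.42%) were lower. These calls came from limma with treatment group and replicate number in the fit, and an adjusted p under 0.05. At an unadjusted p under 0.05 there were 10709 regions, 27.5% of those tested. Between replicates 2 and 3 the same fit gave no call (0 of 38888, 0%), and 2632 regions had an unadjusted p under 0.05. The fit treats libraries as independent, though some numbered 2 resembled some numbered 3 (r up to 0.41 above). Replicate 1 against replicate 2 alone gave 794 calls of 38888, and against replicate 3 alone 2351. The differences were modest. Regions called higher had a median log2 difference of 0.34 (1.26-fold), and regions called lower one of −0.41 (0.755-fold). The most extreme values were 0.73 and −0.87. In 1373 of the regions called higher and 995 of those called lower, the difference had the same sign in all 5 treatment groups. In 386 and 233 the 5 replicate 1 libraries did not overlap the other 10. The calls were chosen by this same difference, so these counts describe them and add no support. The same counts over all 38888 regions are not given here.

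These counts depended on which libraries were used. Without replicate 1 of dCas9 with Cr10 the fit called 9843 regions (4806 higher, 5037 lower). Without replicate 1 of dCas9 with Cr4 it called 161, without that of dCas9-KRAB with Cr10 329, without that of dCas9-KRAB with Cr4 627 and without that of the group lacking a gRNA 1146. Without replicate 2 of dCas9 with Cr10 the count was 6827, and without replicate 2 or 3 of dCas9 with Cr4 it was 1397 or 1724. For dCas9-KRAB with Cr10, dropping replicate 2 gave 1657 and dropping replicate 3 gave 2097. Between replicates 2 and 3, the 0 calls became 165 without replicate 1 of dCas9 with Cr10, and 37 or 44 without replicate 2 or 3 of dCas9-KRAB with Cr4. Without the 4 deepest libraries limma called 0 regions with 11 libraries left, and 7787 regions (20.02%) had an unadjusted p under 0.05. Leaving these 4 out raised the median standard error from 0.10 to 0.13. The balance of directions also moved. With log2 of list length as a covariate limma called 1217 regions higher and 2159 lower, 2013 of them shared with the 3513, and after quantile normalization it called 1855 higher and 2846 lower. Measured against the 6 libraries of like depth, the regions called in all 15 libraries had median differences of 0.30 (higher) and −0.41 (lower). Against the 4 deepest these were 0.39 and −0.41. Since the replicate 1 libraries that chose the regions also enter these medians, they describe the calls and do not test them.

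Regions called in 4 treatment groups were next read in the group left out. Without the group lacking a gRNA, 661 regions were called higher, and 94.7% of them were higher in its replicate 1 library than in its other 2, against 53.1% of all regions. Of 579 called lower, 86.0% were lower there, against 46.9% of all regions. With dCas9-KRAB and Cr4 left out, 94.3% of 300 regions were higher again, against 54.5% of all, and 95.5% of 507 were lower again, against 45.5%. In these groups the pattern of the other groups recurred in libraries that had no part in choosing the regions. Each of these groups holds 1 of the 4 deepest libraries, numbered 2 or 3, as do dCas9 with Cr4 and dCas9 with Cr10. The part of depth in the recurrence was not tested. With dCas9 and Cr4, or dCas9-KRAB and Cr10, left out, the other groups called only 4 and 11 regions, all lower and all lower again in the group left out (47.9% and 50.4% of all regions were lower there). For dCas9 with Cr10 the pattern did not recur. Of 5125 regions called higher elsewhere 47.3% were higher in its replicate 1 library, against 61.5% of all regions, and of 5364 called lower 31.2% were lower, against 38.5%.

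The regions named next are those of lowest p among the calls whose sides do not overlap, so that the gap between the sides is how they were chosen and not a result. The region of lowest p by summit pileup was chr7:641794-642677 (hg19), 884 bp long and lower in the replicate 1 libraries. On the scale of log2 pileup less the library median, where 0 is the median region of a library, it stood at −0.53, −1.08, −0.21, −0.96 and −0.53 in the replicate 1 libraries, in the order of groups above. The other 10 libraries ran from −0.08 through a median of 0.14 to 0.59. All 5 replicate 1 values were below the median of their library, and the log2 difference was −0.87 ± 0.12 (SE), or 0.546-fold (limma adjusted p = 0.00124). At chr19:39465773-39466904, a region of 1132 bp, the replicate 1 values were −0.14, −0.02, 0.39, −0.04 and −0.46. The others ran from 0.44 through 0.61 to 0.77 (difference −0.67 ± 0.090, limma adjusted p = 0.00124). Here dCas9 with Cr10 came within 0.05 of the others, and the other 4 lay lower. At chr16:88856988-88857537 (550 bp) the replicate 1 values were −0.67, −1.08, −1.10, −0.85 and −0.91. The others ran from −0.24 through −0.18 to 0 (difference −0.76 ± 0.11, limma adjusted p = 0.00140). The value of dCas9 with Cr10 was the lowest of the 5 there. The remaining named regions in this direction, chr11:65403447-65404038 and chr12:1675712-1676298, had log2 differences of −0.62 and −0.73 (limma adjusted p = 0.00140 and 0.00147).

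The 5 named regions that were higher in the replicate 1 libraries differed by 0.48 to 0.73. At chr16:79434627-79435122 (496 bp) the replicate 1 values were 1.22, 1.27, 0.95, 1.26 and 1.35. The others ran from 0.59 through 0.72 to 0.91 (difference 0.48 ± 0.077, 1.40-fold, limma adjusted p = 0.00273). At chr1:112841162-112841598 (437 bp), a weak site, the replicate 1 values were −0.16, 0, −0.10, −0.15 and 0.02. The others ran from −1.13 through −0.82 to −0.40 (difference 0.73 ± 0.12, 1.65-fold, limma adjusted p = 0.00329). The 5 replicate 1 libraries were close together at this site, and the other 10 were spread. The other 3 named regions, chr7:142912151-142912581, chr11:35843352-35844001 and chr22:23213192-23213515, differed by 0.50, 0.67 and 0.49 (limma adjusted p = 0.00273, 0.00280 and 0.00329). Between replicates 2 and 3 the limma adjusted p at these 10 regions was 0.714 to 0.986. As 0 of all 38888 regions passed there, this does not set the 10 apart. No gene is assigned to these regions, because gene positions on hg19 were not used here.

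**Figure D3:**
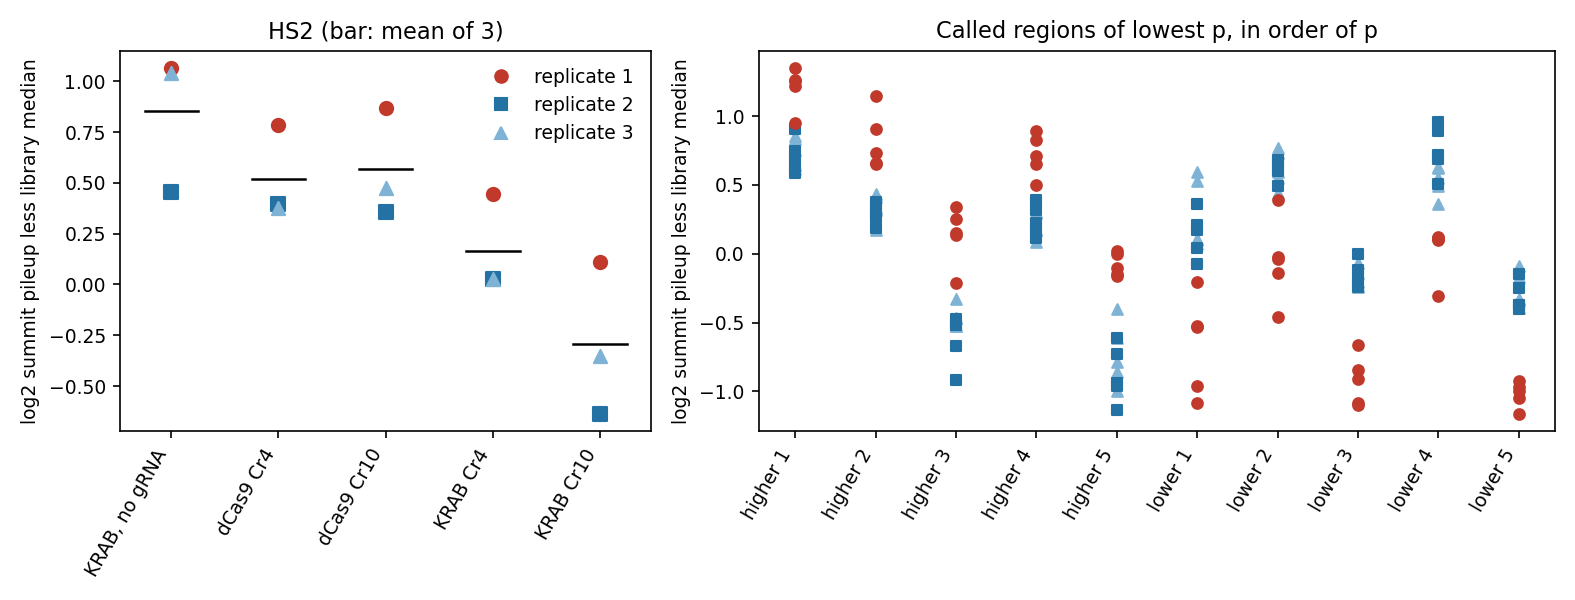
Log2 summit pileup less the median of the library, where 0 is the median region, at HS2 by treatment group (left, bar for the mean of 3) and at the 5 regions called higher and the 5 called lower with the lowest p, in order of p (right, 15 libraries each). HS2 is highest in the replicate 1 library of every treatment group, and the 10 regions on the right were chosen so that the 5 replicate 1 points do not overlap the other 10.

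HS2, the target of both gRNAs, was among the regions that followed the replicate number. The region (chr11:5301766-5302230) stood at 1.07, 0.46 and 1.04 in replicates 1, 2 and 3 without a gRNA. It stood at 0.78, 0.40 and 0.38 with dCas9 and Cr4, and at 0.87, 0.36 and 0.47 with dCas9 and Cr10. With dCas9-KRAB it stood at 0.45, 0.025 and 0.026 for Cr4, and at 0.11, −0.64 and −0.35 for Cr10. Replicate 1 was the highest of the 3 in each of the 5 groups, by 0.32 to 0.61 over the mean of the other 2. The log2 difference was 0.44 ± 0.084 (1.36-fold, limma adjusted p = 0.00528; exact permutation p = 0.00412). It was 0.35 without the 4 deepest libraries (limma adjusted p = 0.117), and without the treatment term in the fit the adjusted p was 0.081. By rank percentile the difference of 16.9 ± 7.22 points was not past the threshold (limma adjusted p = 0.238).

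HS2 was also the single region of 38888 (0.00257%) at which the treatment groups differed once the replicate number was in the fit (limma F test over 5 groups, adjusted p = 0.000451). The group means were 0.85 without a gRNA, 0.52 and 0.57 for dCas9 with Cr4 and Cr10 and, under dCas9-KRAB, 0.17 for Cr4 and −0.29 for Cr10. The 2 groups with dCas9-KRAB and a gRNA were the lowest. The groups with a gRNA and dCas9 without KRAB lay between them and the group without a gRNA. With the number left out of the fit the same test called 0 regions (limma adjusted p = 1.00 at HS2, 64 regions at an unadjusted p under 0.05, against 210 with it). HS2 had the lowest p of all regions in both fits. Leaving out each library in turn gave limma adjusted p-values at HS2 from 3.24e-07 to 0.0217. The p rose to 0.0553 without the mean-variance trend and to 0.260 without the 4 deepest libraries. By rank percentile in lists of equal length no region passed for the treatment term (0 of 62858, 0%), and 1208 had an unadjusted p under 0.05.

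The other sites of the beta-globin cluster did not pass the threshold between replicate 1 and the other numbers. The log2 differences in summit pileup were −0.20 ± 0.13 at HS1, 0.034 ± 0.13 at HS3, −0.15 ± 0.14 at HS4 and 0.028 ± 0.14 at HS5 (limma adjusted p from 0.328 to 0.918). At 3' HS1 the difference was 0.24 ± 0.095 (limma adjusted p = 0.0997). At the HBG1, HBG2 and HBD promoters it was −0.12 ± 0.11, −0.060 ± 0.12 and 0.14 ± 0.097 (limma adjusted p = 0.499, 0.778 and 0.367). Without replicate 1 of dCas9 with Cr10, HS1 (−0.35, limma adjusted p = 0.0267) and 3' HS1 (0.26, 0.0456) passed it. HS1 also passed without replicate 2 of dCas9 with Cr10 (−0.31, 0.0321), and 3' HS1 without replicate 2 of dCas9-KRAB with Cr4 (0.29, 0.0444).

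Every list was cut to its 53098 strongest peaks, so that all had the same length. This kept 100% of replicate 1 of dCas9 with Cr10 and 77.6% to 87.8% of the other replicate 1 lists. It kept 56.1% to 61.1% of the 4 deepest lists and 75.1% to 87.0% of the 6 of like depth. Lists of equal length are thus unequal shares of the deposited ones, and the part of this in the results was not tested. The peaks merged into 78352 regions, of which 62858, those found in 3 or more libraries, were compared by rank percentile (100 for the strongest peak of a list, 0 for no peak). Limma called 155 regions higher (0.247%) and 354 lower (0.563%) in the replicate 1 libraries, against 1 region (0.00159%) between replicates 2 and 3. The 2 other numbers were not alike in this. Replicate 1 against replicate 2 alone gave 15 calls, and against replicate 3 alone 439. Regions called lower had a median difference of −24.4 percentile points, and 241 of the 354 (68.1%) held a peak in all 15 lists, against 54.1% of all regions tested. Regions called higher had a median difference of 21.4 points and a peak in a median of 10 lists. Of these, 51 of 155 (32.9%) held a peak in all 15 lists. Regions called higher were present in 98.3% of the replicate 1 lists and 56.6% of the others. Since a missing peak counts as 0 in the percentile, this gap follows in part from how they were called. With log2 of list length as a covariate the count fell from 509 to 3 regions, and with log2 of the quietest background it was 202. In the deposited lists at full length it was 769, with 12 regions higher and 757 lower, and on the log2 of the rank 95 were higher and 101 lower. Without the 4 deepest libraries it was 0, with 7305 regions at an unadjusted p under 0.05. Leaving out each library in turn gave from 44 (replicate 1 of dCas9 with Cr4) to 1247 calls (replicate 2 of dCas9 with Cr10), and 13 of the 15 libraries moved the count by over 1.5 times, all but replicate 3 lacking a gRNA (639) and replicate 2 of dCas9-KRAB with Cr4 (445). Of the 509 calls, 333 were also tested by summit pileup, and 198 were called there, all in the same direction.

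The regions named by rank were likewise chosen among calls whose sides do not overlap. The lowest p by rank belonged to chr15:51296233-51296801, a strong site in every library. It stood at percentiles 86.6, 88.5, 89.3, 90.1 and 86.0 in the replicate 1 lists, and from 94.6 through 97.9 to 99.5 in the others (difference −9.32 ± 0.912 points, limma adjusted p = 0.00537). At chrX:2171050-2171659 the replicate 1 lists stood at 4.24, 42.8, 36.3, 4.02 and 24.5, and the others from 60.2 through 73.0 to 83.5 (−51.1 ± 5.53 points, limma adjusted p = 0.00577). At chr14:102438704-102439068 no replicate 1 list of equal length held a peak, and all 10 others did, at percentiles 34.7 to 82.5 (−54.6 ± 6.31 points, limma adjusted p = 0.00577). In the deposited lists 2 of the 5 replicate 1 libraries had a peak there, with a summit pileup of at most 17, against 24 to 69 in the other 10. In the other direction, chr20:31278594-31278939 stood at 33.2, 26.6, 31.5, 38 and 33.0 in the replicate 1 lists. The others ran from 0 through a median of 0 to 14.2 (30.6 ± 3.66 points, limma adjusted p = 0.00648). All 5 replicate 1 lists held this peak, and the deposited lists had a peak there in 7 of the other 10. At chr6:158368077-158368554 the replicate 1 lists stood at 41.4, 42.2, 39.1, 44.3 and 44.7, and the others from 0 through 0 to 19.9 (37.5 ± 4.96 points, limma adjusted p = 0.0103). A value of 0 here is a peak below the length limit of the list and not an absent one, since all 15 deposited lists held a peak there, with a summit pileup of 30 to 53 in replicate 1 and 21 to 69 in the others. The other named regions called lower differed by −21.6 to −52.2 points, and those called higher by 22.6 to 37.8 points.

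Strict presence and absence gave few regions. In lists of equal length, 24 regions were held by all 5 replicate 1 lists and none of the other 10, and 22 by none of the 5 and all of the 10. The same counts were 0 and 1 for replicate 2 set against the rest, and 17 and 3 for replicate 3. In the deposited lists, which differ in length, they were 0 and 78 for replicate 1, 0 and 0 for replicate 2, and 71 and 0 for replicate 3. The replicate 3 lists were the longest on average (80339 peaks, against 71257 for replicate 2).

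Peaks that few other lists held were more frequent in the replicate 1 lists at equal length. Peaks in regions held by 5 or fewer of the other 14 lists made up 8.70%, 9.04%, 9.91%, 8.81% and 10.1% of the replicate 1 lists, and from 6.84% to 8.65% of the others. The 5 replicate 1 lists were above all 10 others. This kind is uneven between the sides. A region held only by the 5 replicate 1 lists counts in it, and one held by exactly the other 10 does not. How much of the difference comes from such regions was not tested. The means were 9.30% ± 0.637 and 7.63% ± 0.632, and the replicate 1 list was the highest of its treatment group in 5 of 5 groups (exact permutation p = 0.00412, adjusted p = 0.0165 over 8 kinds). Peaks in no other list made up 2.06% ± 0.649 against 0.952% ± 0.416, again highest in 5 of 5 groups (exact permutation p = 0.00412, adjusted p = 0.0165). Replicate 3 without a gRNA, with 1.66%, was close to its replicate 1 list with 1.70%. Both kinds kept an adjusted p under the threshold when each library in turn was left out of the comparison. With the 4 deepest libraries left out of the comparison both still differed (9.30% against 7.94%, and 2.06% against 1.22%). The exact permutation adjusted p was 0.0346 each, over 462 splits that did not keep to treatment groups. In these alternatives sharing was still counted over all 14 other lists, those left out included. At full length the deposited lists gave the opposite sign for both kinds, with differences of −6.85 and −0.862 percentage points, neither past the threshold (exact permutation adjusted p = 0.349 and 0.675). Among the strongest 30000 peaks of each list the differences were 1.43 and 0.578 points (exact permutation adjusted p = 0.0658 each).

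Peaks of the replicate 1 lists also lay closer to one another. The share with another peak of the same list within 1 kb was 14.2% ± 3.03 against 10.7% ± 1.69 (exact permutation p = 0.0206, adjusted p = 0.0412). Replicate 1 of dCas9 with Cr10, the list that the cut kept whole, was highest with 19.4%. The other 4 replicate 1 lists, at 12.02% to 14.4%, overlapped the range of the others (8.76% to 13.2%). The 4 deepest libraries, of which the cut kept the smallest shares, stood at 8.76% to 9.18%. The share with no other peak within 20 kb was 24.5% ± 0.609 against 25.98% ± 0.967, and the replicate 1 list was lowest in 5 of 5 treatment groups (exact permutation p = 0.0165, adjusted p = 0.0412). Both differences shrank without the 4 deepest libraries, to 2.41 and −0.859 percentage points. The exact permutation adjusted p was 0.126 each, over 462 splits that did not keep to treatment groups. The first missed the threshold without 12 of the 15 libraries in turn, all but replicates 2 and 3 lacking a gRNA and replicate 2 of dCas9-KRAB with Cr4 (exact permutation adjusted p from 0.0593 to 0.198). The second missed it without 9, those numbered 1 and, save the one lacking a gRNA, those numbered 3 (exact permutation adjusted p from 0.0593 to 0.0988). Both changed sign in the deposited lists at full length, to −1.27 and 3.27 points (exact permutation adjusted p = 0.349 each). The share of peaks under 300 bp, 44.0% ± 4.35 against 36.2% ± 8.10, was not past the threshold (exact permutation p = 0.132, adjusted p = 0.151). It was 44.0% against 42.1% without the 4 deepest libraries.

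**Figure D4:**
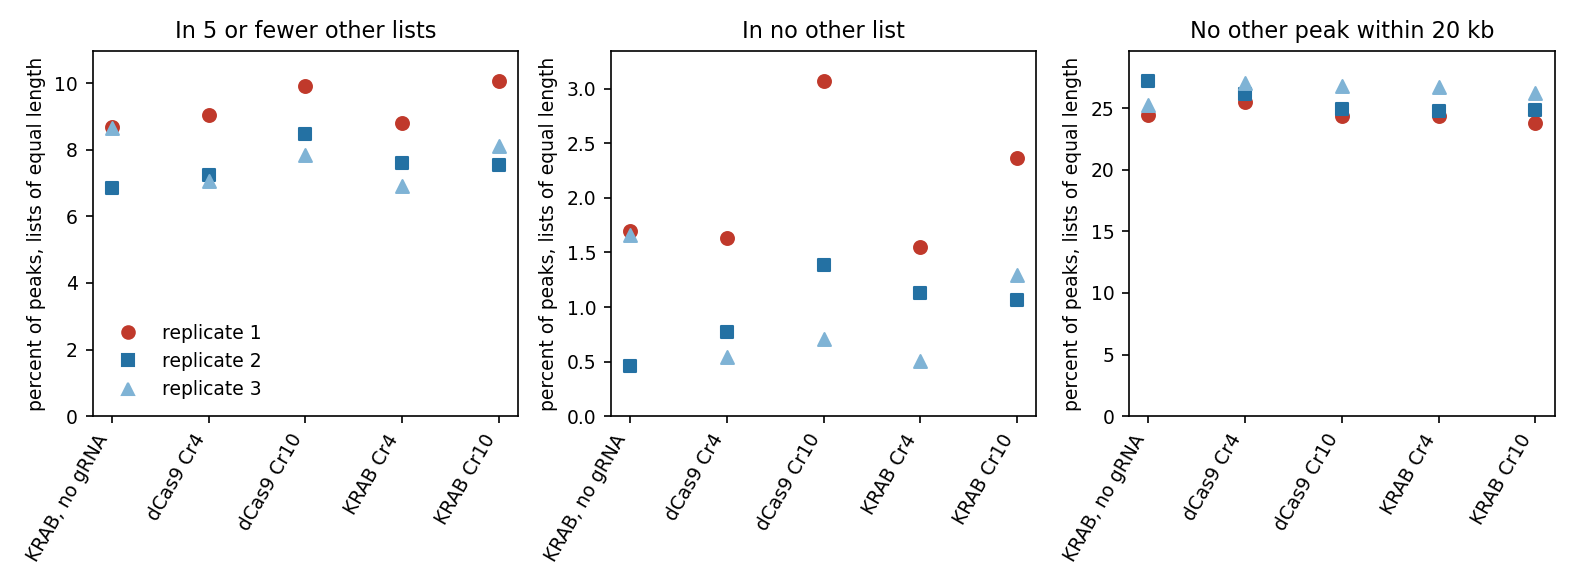
Percent of the 53098 strongest peaks of each list that lie in regions held by 5 or fewer other lists (left), in no other list (middle) or with no other peak of the list within 20 kb (right), by treatment group, with 1 point for each library. The replicate 1 point is the highest of its group in all 5 groups on the left and in the middle, and the lowest in all 5 on the right.

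The strongest regions stood higher in the replicate 1 libraries than in the 4 deepest, and close to the 6 libraries of like depth. In the top decile of mean summit pileup (156.5 to 336.9 fragments) the median log2 difference was 0.13 (1.09-fold). In that decile 9.69% of regions were called higher and 0.0514% lower. The level of this decile was 1.31 to 1.44 in the replicate 1 libraries, 1.32 to 1.37 in the 6 libraries of like depth and 1.08 to 1.12 in the 4 deepest. The difference was 0.028 from the 6 libraries of like depth and 0.28 from the 4 deepest. The part of depth in this was not tested. Replicates 2 and 3 also differed along this scale, from −0.099 in the bottom decile to 0.10 in the top one. In the bottom decile, replicate 1 was 0.067 higher than the 6 libraries of like depth and 0.061 lower than the 4 deepest.

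Regions called lower were most frequent at middle strength. Their share rose from 2.37% in the bottom decile to 6.996% in the seventh and fell to 1.83% in the ninth. Regions called lower had a median pileup of 69.9 fragments and regions called higher one of 100.5, against 72.3 for all regions. The groups of calls were of like width, with medians of 421 and 426 bp against 395 bp for all.

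**Figure D5:**
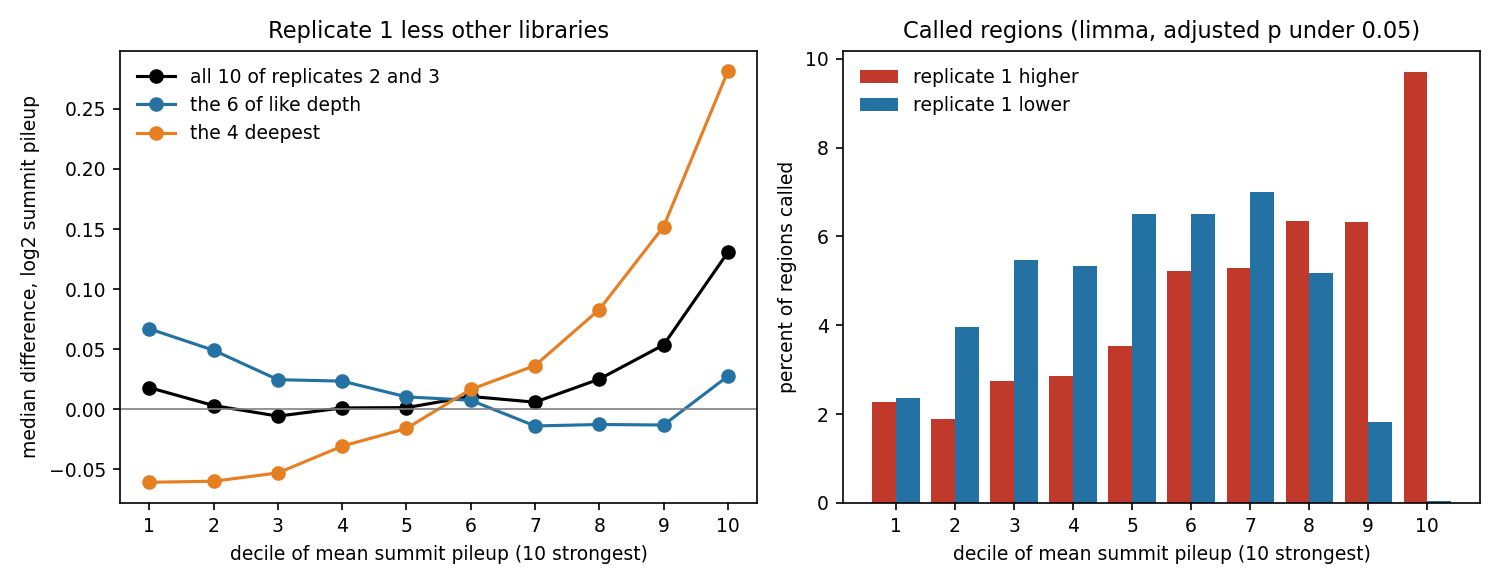
Median difference of log2 summit pileup between the replicate 1 libraries and all 10 others, the 6 of like depth or the 4 deepest (left), and percent of regions called higher or lower in replicate 1 against all 10 (right), by decile of mean summit pileup over 38888 regions. In the top decile the difference is 0.13 from all 10, 0.028 from the 6 and 0.28 from the 4, and calls of lower regions peak at 6.996% in the seventh decile.

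Width and local background moved with the summit pileup in the called regions. Regions called higher were wider in the replicate 1 libraries by a median of 0.15 in log2 and had a local background higher by 0.18. Regions called lower were narrower by 0.11 and had a local background lower by 0.23. Over all regions the medians were 0.042 and 0.032. Each of these is relative to the median of its library, and all 3 come from the same peaks.

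Among all but the strongest regions, narrow ones stood higher than wider ones. Regions were split in 4 by mean pileup. In the weakest class, regions with a mean width under 300 bp had a median log2 difference of 0.041, and those of 300 to under 1000 bp one of −0.027. In the second class these values were 0.042 and −0.015, and in the third 0.075 and 0.0052. In the third class, calls of higher regions made up 8.14% of the narrow regions and 5.21% of the wider ones, and calls of lower regions 2.22% and 6.97%. In the strongest class, where few regions were narrow, regions of 1000 bp or more stood at 0.11 and those of 300 to under 1000 bp at 0.082.

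Among the strongest of these 4 classes, the share called higher rose with the number of regions nearby. It was 4.51% where 0 to 40 other regions lay within 500 kb and 13.5% where over 160 did, with median differences of 0.045 and 0.14. In the weakest it was 2.41% and 1.54% (of 130 regions), in the second class 2.44% and 3.42% and in the third 4.09% and 5.21%. In the weakest class the share called lower was 2.73% and 10.0%. Over all strengths the median difference was 0.0080 with 0 to 40 other regions nearby and 0.076 with over 160. The difference of replicate 2 less replicate 3 also rose along this scale, from −0.038 to 0.10, so the trend was not particular to replicate 1. The differences between classes were not tested. Neighbouring regions within 5 kb of each other also moved together. Across 5668 such pairs the differences had a correlation of 0.40, and in 92 of the 96 pairs with both regions called the direction was the same (95.8%, against 50.02% from the shares of higher and lower calls, and 63.6% of all pairs had the same sign).

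No chromosome differed past the threshold, and 6 of 23 had an unadjusted p under 0.05. The lowest p-values for the share of peaks, in lists of equal length, were those of chromosomes 2, 19 and 1. Chromosome 2 held 7.02% ± 0.0672 of the replicate 1 peaks and 7.24% ± 0.114 of the others, and was lowest in replicate 1 in 5 of 5 groups (exact permutation p = 0.0206, adjusted p = 0.158 over 23 chromosomes). Chromosome 19 held 5.99% against 5.78% (p = 0.0329) and chromosome 1 10.8% against 10.4% (p = 0.0412), both with exact permutation adjusted p = 0.158, and chromosomes 8, 12 and 16 tied with the latter. With 243 assignments, 1 chromosome alone could not go below an adjusted p of 0.0947. Without replicate 2 of dCas9 with Cr10, 4 chromosomes passed. Local background by chromosome gave 0 past the threshold too, with the lowest exact permutation p at chromosomes 12, 18 and 1 (0.0123, 0.0370 and 0.0494, adjusted p = 0.284, 0.379 and 0.379).

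By shared bases the replicate 1 lists were not more alike past the threshold. The mean Jaccard index (shared bases over all bases covered) of lists of equal length was 0.699 between replicate 1 lists and 0.686 between replicate 1 lists and the others, pairs of the same treatment left out (difference 0.0138, two-sided exact permutation p = 0.317). By share of regions in common the means were 0.753 and 0.750 (difference 0.0031, exact permutation p = 0.827). Without replicate 1 of dCas9 with Cr10 the means were 0.726 and 0.692 (difference 0.0343, exact permutation p = 0.0123 over 81 assignments, the smallest they can give). That library had already stood apart in the correlations above, and without any other library the exact permutation p was 0.265 to 0.704. Replicate 2 lists shared 0.726 with one another and 0.727 with replicate 3 lists.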

How the data were processed

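The data are 15 narrowPeak lists, 1 for each library, on hg19. Reads were processed with CASAVA 1.3, BWA and bedtools, per the submitters' processing notes; the sources used here name neither a peak caller nor a threshold. The fold column is the authors' ratio of a summit over the local background, and was used to rank peaks within a list. The authors deposited p-values and q-values as −log10. The deposited score column was not used. A whole summit pileup k and a background were solved from fold = (k + 1)/(background + 1) and the Poisson p-value, which met the p-value column within 0.001 for 100% of peaks (largest deviation 0.00014). Peaks on the autosomes and X were kept. Those on Y, 49 to 101 in each list, were left out.

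The members, lists and tests were chosen with earlier results of these data known. Overlapping peaks (1 bp or more) were joined, giving 120992 regions from the deposited lists. Limma 3.58.1 (R 4.3.3) fitted treatment group and the replicate number as 3 levels, with a mean-variance trend and Benjamini-Hochberg adjustment at 0.05, and was tested on simulated data. Single values were tested by two-sided exact permutation (Python 3.11.15, numpy 2.4.6, scipy 1.17.1). Named are up to 10 called regions in each direction by rank and up to 5 by pileup, those of lowest p whose sides do not overlap, the beta-globin windows, and chromosomes past the threshold or else the 3 of lowest p. The treatment test, matched-depth values, held-out groups, strength, width, density and neighbour summaries were added after the data were seen. The beta-globin windows are recalled positions, not checked against an annotation. The planned shares by GC content, CpG content, motif and gene start need an hg19 genome and annotation and were not run. Alternatives covered list length, region filter, rank scale, overlap, normalization, covariates, limma settings and leaving out each library.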

Additional observations from a re-analysis of the deposited data

Results flagged for a closer look

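Of 96 sets of 5 libraries (1 measure in the libraries of 1 replicate number), 7 held a library far from the other 4, where chance flags about 1 in 20 sets. In replicate 1, dCas9 with Cr10 had a median peak width of 296 bp, against 301 to 302 bp in the other 4, and 68.8% of its peaks lay in regions held by all other 14 lists, against 66.0% to 66.8%. HS4 stood at rank percentile 56.8 in replicate 1 of dCas9-KRAB with Cr10, against 42.3 to 44.2. In replicate 2, the library without a gRNA had a quietest background of 5.59 fragments, against 2.43 to 3.22, and a median summit pileup of 19.5 times that background, against 23.1 to 24.5. The HBD promoter stood at rank percentile 71.3 in replicate 2 of dCas9-KRAB with Cr10, against 77.0 to 79.1, and at a log2 summit pileup of 0.074 in replicate 2 of dCas9-KRAB with Cr4, against −0.31 to −0.20.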

How the results depend on the processing

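No paired analysis was possible because the replicate number is itself what was compared; treatment group was in the fit instead. Regions called by rank numbered 509 in all; 1677 without the treatment term, 3 with list length and 202 with background as covariate, 0 without the 4 deepest libraries, 769 in deposited lists (12 higher), 163 when regions in at least 1 library were tested, 196 on the log2 of the rank, and 44 to 1247 leaving out each library. The 1 call between replicates 2 and 3 became 12 without treatment, 43 in deposited lists, 2 with regions in at least 1 library, and 0 with either covariate, with regions in at least 8 libraries, with summits within 150 bp, or without any 1 library. Pileup calls numbered 3513; 5534 without treatment, 5591 with background as covariate, 2242 without trend, 0 without the 4 deepest, and 161 to 9843 leaving out each library; between replicates 2 and 3 the 0 became 3 and 6 with list length or background as covariate and 0 to 165 leaving out each library. The single region called by treatment became 0 without the number, without trend or without the 4 deepest, and stayed 1 without each library. The causes were not tested.

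Among kinds of peak, in the order another peak within 1 kb, none within 20 kb, held by 5 or fewer lists and held by none, differences in percentage points were −1.27, 3.27, −6.85 and −0.862 at full length; 1.12, −0.959, 1.43 and 0.578 for 30000 peaks; 3.04, −1.08, 1.76 and 1.10 against replicate 2; 4.07, −1.91, 1.59 and 1.12 against replicate 3 (with 5 groups of 2 no kind can pass, the smallest p being 0.0625); and leaving out each library 2.11 to 4.08, −1.69 to −1.30, 1.49 to 1.86 and 0.883 to 1.23. Without the 4 deepest the first 2 were 2.41 and −0.859. Peaks held by all other lists (1.204) passed with any 5 of 15 libraries permuted, as did pileup in the strongest 1000 regions (0.752), and ran from 0.593 to 1.41 leaving out each library. Pileup over background passed without the 4 deepest (−3.34), which were chosen by that background. Chromosome shares past the threshold ran from 0 to 4 and the Jaccard difference from 0.00524 to 0.0343 leaving out each library. For 48 named regions and sites, 1089 alternative values gave 64 lost calls and 5 gained. Changes of sign were counted only where the main fit had passed the threshold, and there were 0. Regions named for the lowest p were chosen by this difference, so that they kept their sign is no support. Sites not past the threshold did change sign in summit pileup, as HS3 from 0.034 to −0.083 without replicate 1 of dCas9 with Cr10.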

Other observations

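The 10 libraries numbered 2 or 3 fell into 5 pairs by rank percentile, in each of which both libraries had the other as their closest of all 14, and every pair joined different treatment groups. The pairs were dCas9 with Cr4 replicate 2 and the second library lacking a gRNA (r = 0.59 across regions), replicate 2 of dCas9 with Cr10 and replicate 3 of dCas9-KRAB with Cr4 (0.47), replicate 3 of dCas9 with Cr10 and replicate 2 of dCas9-KRAB with Cr10 (0.47), replicate 2 of dCas9-KRAB with Cr4 and replicate 3 of dCas9 with Cr4 (0.41), and, last, dCas9-KRAB with Cr10 replicate 3 and the third library lacking a gRNA (0.18). The second closest library of any of these 10 had r of at most 0.19. By summit pileup 2 of the 5 pairs were mutually closest, the first and the last, and by shared bases 2, the first and the second. In 3 of the 5 pairs the libraries carry different replicate numbers. The limma fits above, that of replicate 2 against 3 included, took the libraries of a pair as independent.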
